A study of Mus musculus with 4 samples.

Results

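The 10 genes described here encode 7 proteins of the acute-phase response (Lcn2, Lrg1, Saa3, Hp, Orm1, Serpina3n and Cp) and 3 transcription factors of the C/EBP family (Cebpa, Cebpb and Cebpd). They were taken by gene symbol, and every probe of each was kept in view, which gave 15 probes of 56605 on the array and 10 genes of 27278 with a symbol. They were selected on gene symbol with the signals of these 4 arrays, the scanner software's flags for a spot well above background, and earlier results of the PGE2 and control comparison already known, so their differences between groups are a description, and each adjusted p gives only a gene's place in the fit over all genes. RNA came from cultured vascular smooth muscle cells, grown out of explanted aorta of adult C57BL/6J mice with the genotype EP4-Tg. PGE2 (prostaglandin E2) acts on EP4, a receptor that raises cyclic AMP. The 2 PGE2 cultures had 24 h of PGE2, and the 2 control cultures were left untreated for 24 h. All 4 carried EP4-Tg and were kept in 10% DMEM medium, and each was hybridised to 1 single-colour Agilent array. The dose of PGE2, the age of the mice beyond adult, the promoter and species of the EP4 transgene, and whether animals were pooled are not given in the sources used here.

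Acute-phase proteins are secreted plasma proteins whose level changes in inflammation, and most are made in the liver under the control of interleukin 6 and interleukin 1. The C/EBP factors are leucine-zipper proteins that bind as dimers. C/EBP beta and C/EBP delta are known as factors that rise with inflammatory signals and drive acute-phase genes, while C/EBP alpha is best known from differentiated liver and fat cells. Many acute-phase genes are also transcribed outside the liver, in macrophages, fat, epithelium and cells of the vessel wall.

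Signals are given on the log2 scale relative to the 75th percentile of the array, so that 0 is the level of that percentile, and 17660 genes or unnamed probes were tested. Differences are PGE2 minus control, each with its standard error from limma (n = 2 arrays per group), and a gene was called at a Benjamini-Hochberg adjusted p under 0.05. All 10 genes passed the filter on dim probes, Saa3 and Orm1 only through the PGE2 arrays. Of the 15 probes, 13 passed it and 8 were well above background on all 4 arrays. Between 47.9% and 53.8% of spots were well above background on an array and 0 were saturated. Of 10 smooth muscle marker genes, 6 (Acta2, Tagln, Cnn1, Smtn, Synpo2 and Mylk) were well above background on all 4 arrays and Myocd was on none. The summed level of the 10 was 131 and 174 times the 75th percentile on the PGE2 arrays, against 717 and 409 on the control arrays. Acta2 and Tagln dominate that sum, with differences of -2.10 and -1.79, and Cnn1 stood at -2.26. Smtn stood at -0.33, Synpo2 at -0.43 and Mylk at -0.07, and 0 of these 6 were called (limma). Of 6 fibroblast markers 5 were well above background on all 4 arrays, and the list summed to 96.6 and 92.6 with PGE2, against 269 and 164 in control. Their differences did not share a sign, with Pi16 at 2.78 ± 0.43 and Dcn at -2.91 ± 0.46 (adjusted p = 0.0962 and 0.101, limma), Lum at -2.17, Pdgfra at 0.60 and Col1a1 at -0.00520. The part of such cells in the values below was not tested. In bulk RNA of this kind, fewer cells of a type and less RNA per cell cannot be told apart.

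Of the 10 genes, Lrg1 rose with PGE2 by the test over all genes, by 5.04 on the log2 scale. Called genes that were higher made up 0.396% of all tested genes, and 0.272% were called lower, among them 0 of the 10. In 8 of the 10 both PGE2 arrays lay above both control arrays, which was so in 24% of all tested genes, and in 0 of the 10 both lay below, against 28.3%. At an unadjusted p under 0.05 (limma), 8 of the 10 were higher and 0 lower, against 7.31% and 10.5% of all tested genes. The fitted differences ran from -1.16 for Cp to 5.04 for Lrg1 with a median of 1.81, or 1.40 with Saa3 and Orm1 at the lower bounds given for them, where the median of all tested genes was -0.03. Because results were known when the genes were proposed, nothing is read from these shares.

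**Figure D1:**
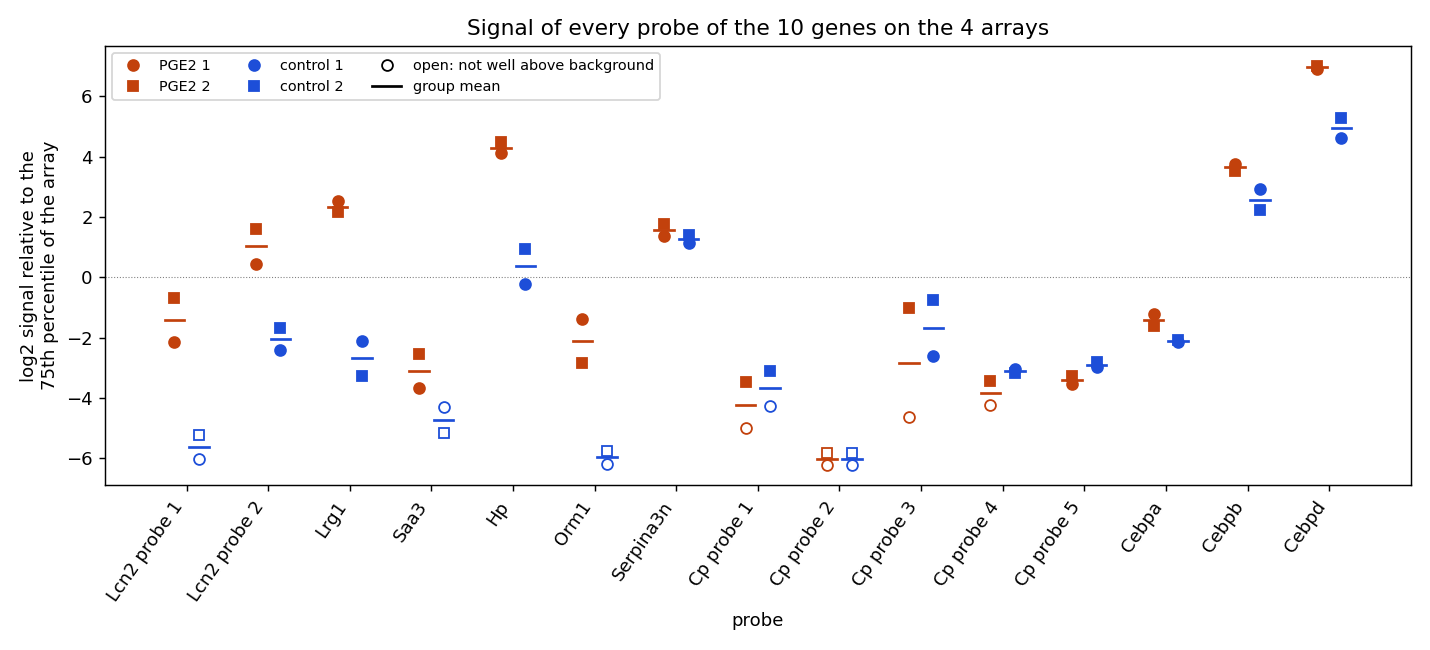
Log2 signal relative to the array's 75th percentile (y axis) for each of the 15 probes (x axis), with PGE2 arrays left of control arrays, circles for replicate 1, squares for replicate 2, open symbols for spots not well above background and bars for group means. The Lrg1 probe stands at 2.52 and 2.17 on the PGE2 arrays and at -2.10 and -3.28 on the control arrays, while the 5 Cp probes show overlapping or nearly overlapping groups.

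To show the sequence before these genes, the 250 bases before their RefSeq starts (build GRCm38.p6) were searched on both strands for 4 sets of letters. These were TTGCNNAA for C/EBP, GGGA and CC with 4 bases of any kind between them for NF-kB, TTCNNNGAA for STAT factors and TGACG, the core of a cyclic AMP response element, and no match overlapped another. The table of promoters held 8 windows of 7 of the genes, all but Hp, Orm1 and Cebpd. The C/EBP letters were in windows of 3 of these 7 genes (Lcn2, Saa3 and Cp), and in those of 10.8% of all 27025 genes, or 9.56% of all 32851 windows. The NF-kB letters were in 3 of the 7 (Serpina3n, Cp and Cebpb) and in 19.7% of all genes (17.6% of windows). The STAT letters were in 0 of the 7 and in 8.13% of all genes (7.02% of windows). The TGACG letters were in 1 of the 7 (Cebpb, with 3 matches) and in 19.8% of all genes (17.8% of windows). A match says only that the letters are there. The windows of Lcn2, Saa3, Cebpb and Lrg1 are printed 5′ to 3′ on the strand of the gene, with matches in capitals, to show the C/EBP letters of the first pair, the TGACG and NF-kB letters of Cebpb, and the called gene Lrg1, whose window held none of the 4. The Lcn2 match lies at -216 to -209 from the start and the Saa3 match, on the opposite strand, at -99 to -92. The Saa3 window lies inside the RefSeq span of its gene. The windows are chr2:32387740-32387989 (minus strand) for Lcn2, chr7:46715677-46715926 (minus strand) for Saa3, chr2:167688665-167688914 (plus strand) for Cebpb and chr17:56121947-56122196 (minus strand) for Lrg1.
Lcn2: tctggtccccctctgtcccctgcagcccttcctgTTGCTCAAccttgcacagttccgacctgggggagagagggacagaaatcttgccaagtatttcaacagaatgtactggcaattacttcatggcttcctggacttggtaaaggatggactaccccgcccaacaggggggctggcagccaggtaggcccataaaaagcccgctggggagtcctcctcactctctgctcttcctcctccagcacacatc
Saa3: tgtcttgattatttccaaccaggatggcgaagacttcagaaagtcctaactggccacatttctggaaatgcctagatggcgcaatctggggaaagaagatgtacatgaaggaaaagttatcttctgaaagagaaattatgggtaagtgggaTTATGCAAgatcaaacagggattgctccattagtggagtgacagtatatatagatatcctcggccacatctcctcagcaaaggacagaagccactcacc
Cebpb: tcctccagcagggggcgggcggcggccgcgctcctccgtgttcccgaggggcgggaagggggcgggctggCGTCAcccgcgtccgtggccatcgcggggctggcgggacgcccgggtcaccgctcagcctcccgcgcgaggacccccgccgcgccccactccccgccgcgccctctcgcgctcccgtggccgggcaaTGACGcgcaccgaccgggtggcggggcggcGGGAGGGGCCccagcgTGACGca
Lrg1: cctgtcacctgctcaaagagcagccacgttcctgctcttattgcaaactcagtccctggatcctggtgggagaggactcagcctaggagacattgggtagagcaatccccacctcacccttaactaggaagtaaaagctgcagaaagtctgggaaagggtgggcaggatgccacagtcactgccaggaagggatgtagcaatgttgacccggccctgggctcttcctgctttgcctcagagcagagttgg

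Lrg1 (gene ID 76905, cytoband 17qD) encodes a secreted leucine-rich glycoprotein that is known to modulate TGF-beta signalling in blood vessels. Its 1 probe gave 2.52 and 2.17 on the PGE2 arrays, against -2.10 and -3.28 on the control arrays. The probe was well above background on all 4 arrays, and the groups were far apart, with the smallest gap between any PGE2 and any control array at 4.27. The difference was 5.04 ± 0.45 (32.8-fold, adjusted p = 0.0465, limma). By its fitted value Lrg1 ranked 15 of 17660. The call was lost under 8 of 14 alternatives, among them without control replicate 1, without control replicate 2 or without PGE2 replicate 1 (adjusted p = 0.142, 0.109 and 0.0619), while the value stayed between 4.44 and 5.63 with 1 array left out. Lrg1 is also made by endothelium. Of 6 endothelial markers Pecam1 was well above background on all 4 arrays and Tek and Emcn on none. The summed level was 0.178 and 0.284 with PGE2, against 0.464 and 0.226 in control. Kdr dominates the sum on control replicate 1, at -1.75, and read -5.91 on control replicate 2 and -6.37 and -6.94 with PGE2. Pecam1 stood at -0.15, and Cdh5 and Vwf at 0.89 and 0.59, both well above background on 1 PGE2 array only. The part of endothelial cells in the Lrg1 signal was not tested.

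Hp (gene ID 15439, 8qD3) encodes haptoglobin, which binds free haemoglobin in plasma. Its probe read 4.11 and 4.47 on the PGE2 arrays, against -0.21 and 0.94 on the control arrays. All 4 values were well above background and the groups did not overlap. The difference of 3.93 ± 0.45 (15.2-fold) had an adjusted p of 0.0642 (limma), just outside the threshold. With normexp background correction it was 0.0386 after 75th percentile scaling and 0.0569 after quantile normalization. It rose to 0.0836 with quantile normalization alone, 0.0865 on the authors' scaled values and 0.240 with no filter on dim probes (limma). Hp passed the threshold under 2 of 14 alternatives. The difference ran from 3.35 to 4.50 when 1 array was left out.

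Lcn2 (gene ID 16819, 2qB) encodes lipocalin 2, which binds bacterial siderophores and so withholds iron from microbes. Its brighter probe read 0.45 and 1.59 on the PGE2 arrays, against -2.40 and -1.67 on the control arrays. The dimmer probe read -2.15 and -0.70 on the PGE2 arrays, against -6.03 and -5.22 on the control arrays, where it was not well above background. On both probes PGE2 replicate 2 was the highest array and both PGE2 arrays lay above both control arrays. The brighter probe gave a difference of 3.05 ± 0.49 (8.31-fold, adjusted p = 0.103, limma), and the dimmer one was at least 5.27-fold higher. Such a bound sets the mean of the PGE2 arrays against, on each control array, the dimmest signal well above background or the probe itself, whichever was higher. An adjusted p printed beside such a bound tests the measured difference and not the bound. Lcn2 is also a granule protein of neutrophils. Of 7 neutrophil markers Ngp and Cxcr2 were well above background on none of the 4 arrays, and Csf3r and Elane were on all 4. Csf3r stood at -0.19 and Elane at -0.69 (adjusted p = 0.733 and 0.282, limma). The summed level, which Csf3r dominates, was 61.3 and 68.0 on the PGE2 arrays, against 60.0 and 87.6 on the control arrays. Ly6g, of a gene family with close copies, was the 1 marker of that list that was called, at 4.26 ± 0.24 (adjusted p = 0.0438, limma), with 1 of 2 control arrays well above background. The part of these genes in the Lcn2 signal was not tested.

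On both control arrays the probes of Orm1 and Saa3 were too dim to be well above background, so for both only a lower bound of the fold is given. Orm1 (gene ID 18405, 4qB3) encodes orosomucoid, a glycoprotein that carries small molecules in plasma. It read -1.39 and -2.84 on the PGE2 arrays, against -6.19 and -5.75 on the control arrays. PGE2 replicate 1 was the higher of its group, the reverse of Lcn2. The control values lay at the level of genes without signal, such as the brighter of both albumin probes at -6.12 and -5.67. Orm1 was thus at least 3.28-fold higher. That bound was 1.99-fold without PGE2 replicate 1, 5.42-fold without PGE2 replicate 2, and 2.86-fold and 3.76-fold without control replicate 1 and control replicate 2. The measured difference had an adjusted p of 0.0872 (limma). With dim signals raised to the dimmest signal well above background, the difference was 1.71 and the adjusted p 0.236 (limma). The adjusted p was 0.0570 without PGE2 replicate 1, 0.0370 without PGE2 replicate 2, and 0.259 and 0.189 without control replicate 1 and control replicate 2 (limma). With 1 array left out, the lone array of a group is assumed to vary like the other group.

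Orm1 has close copies, and probes for these can read each other's transcripts. The Orm2 probe read -0.96 and -2.06 on the PGE2 arrays, against -6.24 and -5.81 on the control arrays, at least 4.97-fold higher (adjusted p = 0.0544, limma). The brighter Orm3 probe read -0.71 and -2.28 on the PGE2 arrays, against -4.06 and -4.41 on the control arrays, at least 5.04-fold higher (adjusted p = 0.147, limma). In all 3 genes PGE2 replicate 1 was above PGE2 replicate 2 and no control array was well above background. A second Orm3 probe was well above background on none. The Orm values are therefore uncertain as to which copy was read.

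Saa3 (gene ID 20210, 7qB4) encodes a serum amyloid A protein that in mice is made mainly outside the liver. It read -3.66 and -2.55 on the PGE2 arrays, against -4.29 and -5.18 on the control arrays. The groups did not overlap, yet the smallest gap, 0.63, was less than the distance between the PGE2 arrays. Saa3 was at least 1.65-fold higher, a bound that ran from 1.12-fold to 2.42-fold with 1 array left out. The measured difference had an adjusted p of 0.241 (limma). With dim signals raised to the dimmest signal well above background, the difference was 0.72 and the adjusted p 0.452 (limma). Of its relatives, Saa1 was well above background on all 4 arrays at -1.93 and -1.82 with PGE2, against -1.30 and -1.59 in control, a difference of -0.43 (adjusted p = 0.333, limma). The direction of Saa1 was thus opposite to that of Saa3, and Saa2 and Saa4 were well above background on none of the 4. Whether the Saa3 probe also reads transcripts of these relatives was not tested, so its value is uncertain. Mouse macrophages also make Saa3. Of 8 macrophage markers Adgre1, Lyz2 and Mrc1 were well above background on none of the 4 arrays, and Ptprc, Csf1r, Cd68 and Itgam on all 4. Cd68 read -1.33 and -1.13 with PGE2, against -3.78 and -2.86 in control (2.09 ± 0.36, adjusted p = 0.109, limma), with groups apart in the direction of Saa3, and Csf1r stood at 0.98 (adjusted p = 0.338). Itgam stood at -0.61 and Ptprc at -0.36 (adjusted p = 0.341 and 0.4998, limma). The summed level, which Itgam dominates, was 58.4 and 38.9 with PGE2, against 75.5 and 62.4 in control. The part of such cells in the Saa3 signal was not tested.

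Serpina3n (gene ID 20716, 12qE) encodes a secreted serine protease inhibitor, one of a mouse cluster related to the human antichymotrypsin gene. It was well above background on all 4 arrays, at 1.37 and 1.78 on the PGE2 arrays, against 1.15 and 1.39 on the control arrays. PGE2 replicate 1 lay just below control replicate 2, so the groups overlapped. The difference was 0.31 ± 0.22 (adjusted p = 0.529, limma). The cluster holds close copies, and its other probes well above background on all 4 arrays gave similar values, 0.31 for Serpina3b, 0.34 for the brighter Serpina3i probe and 0.35 for Serpina3j (adjusted p = 0.436, 0.430 and 0.502, limma). Serpina3h, well above background on 1 of 2 PGE2 arrays, stood at -1.06 (adjusted p = 0.108). Which copy such probes read is uncertain.

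Cp (gene ID 12870, 3qA2) encodes ceruloplasmin, the copper-carrying ferroxidase of plasma, and has 5 probes. The brightest read -4.64 and -1.03 on the PGE2 arrays, against -2.60 and -0.74 on the control arrays. Replicate 1 was low in both groups, and on PGE2 replicate 1 the probe was not well above background. The spread within the PGE2 group, 3.61, exceeded the difference of -1.16 ± 1.42 (adjusted p = 0.704, limma). The value was 0.64 without PGE2 replicate 1 and -2.97 without PGE2 replicate 2, so its direction rested on 1 array. The 1 Cp probe that was well above background on all 4 arrays read -3.55 and -3.26 with PGE2, against -2.98 and -2.82 in control, with no overlap and a difference of -0.51. That value came with an adjusted p of 0.263 (limma) where only probes well above background on all 4 arrays were fitted. Another probe, designed on the same transcript as the brightest, gave -0.72, and the other two, which did not pass the filter, gave -0.55 and -0.00215. No Cp probe had a difference above 0, but probes well above background on no array had a median difference of -0.52. The sign of the dim Cp probes is therefore not read.

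**Figure D2:**
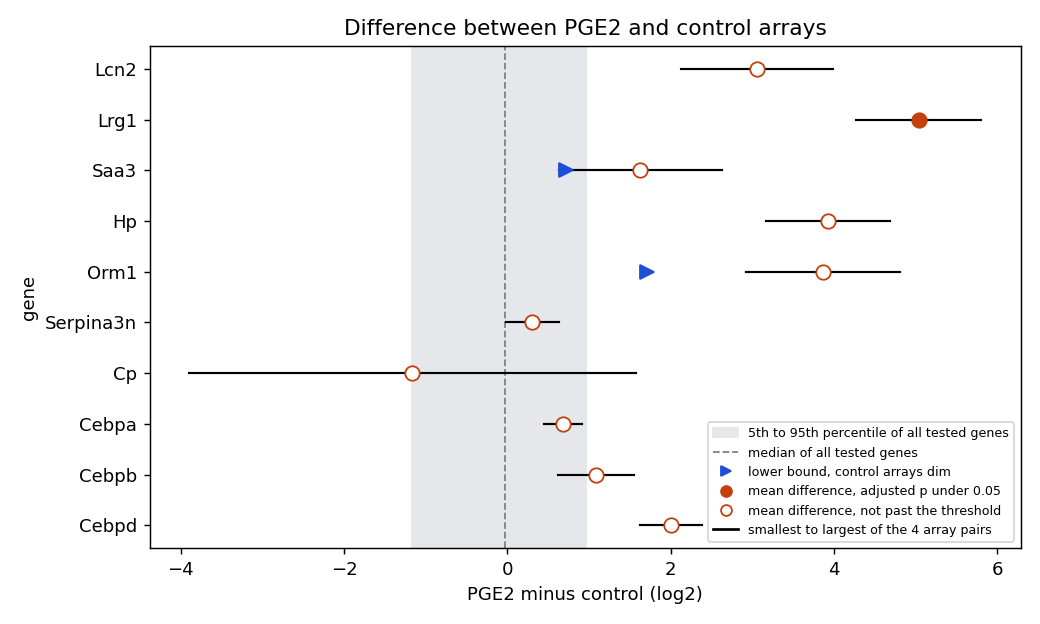
PGE2 minus control on the log2 scale (x axis) for each gene (y axis), with the mean difference as a point, filled for an adjusted p under 0.05, a triangle at the lower bound where both control arrays were dim, and a line over the smallest and largest of the 4 differences between a PGE2 and a control array. The grey band covers the 5th to the 95th percentile of all tested genes, -1.17 to 0.96. Lrg1, Hp, Lcn2, Cebpd and Cebpb have means to the right of it. The points of Orm1 and Saa3, 3.86 and 1.63, also lie there, but are measured against dim control arrays. The bound of Orm1, 1.71, lies outside the band and that of Saa3, 0.72, inside it.

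The C/EBP factors had 1 probe each, all well above background on all 4 arrays. In each of the 3 genes both PGE2 arrays lay above both control arrays, as in 24% of all tested genes. None passed the threshold, where 0.396% of all tested genes were called higher and 0.272% lower. The genes were chosen with results known, so nothing is read from these counts. Cebpd (gene ID 12609, 16qA2) encodes C/EBP delta, a factor that is induced early by cytokines and other stimuli. It read 6.91 and 7.01 on the PGE2 arrays, against 4.63 and 5.29 on the control arrays. The PGE2 arrays differed from each other by 0.10 and the control arrays by 0.66. The difference was 2.00 ± 0.27 (3.998-fold, adjusted p = 0.0826, limma), and 1.67 to 2.33 with 1 array left out.

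Cebpb (gene ID 12608, 2qH3) encodes C/EBP beta, also known as NF-IL6 from its binding at the interleukin 6 gene. It read 3.77 and 3.54 on the PGE2 arrays, against 2.92 and 2.22 on the control arrays. The gap between the nearest arrays was 0.62, slightly under the distance of 0.70 between the control arrays. The difference was 1.09 ± 0.30 (2.12-fold, adjusted p = 0.201, limma).

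Cebpa (gene ID 12606, 7qB1) encodes C/EBP alpha. It read -1.23 and -1.63 on the PGE2 arrays, against -2.14 and -2.08 on the control arrays, which were nearly equal. The difference of 0.68 ± 0.20 (1.61-fold) had an adjusted p of 0.226 (limma). C/EBP alpha is a factor of fat and liver cells. Of 8 adipocyte markers Adipoq, Plin1, Cidec and Retn were well above background on none of the 4 arrays, and Lep and Pparg were on all 4, with differences of -0.14 and -1.34 (adjusted p = 0.658 and 0.162, limma). The summed level was 0.62 and 0.81 on the PGE2 arrays, against 1.34 and 1.78 on the control arrays. Of 8 hepatocyte markers Alb, Apoa1, Cyp3a11 and Serpina1c were well above background on none of the 4 arrays. Ahsg, also on that list, was called higher (3.53 ± 0.24, adjusted p = 0.0438, limma), and Apoa2, on all 4 arrays, stood at -0.22 (adjusted p = 0.583). The summed level, which Apoa2 dominates, was 4.56 and 3.67 with PGE2, against 4.74 and 4.47 in control. The part of either cell type in the Cebpa signal was not tested.

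The ordered differences of the C/EBP genes, Cebpd, Cebpb and Cebpa at 2.00, 1.09 and 0.68, had standard errors of 0.27, 0.30 and 0.20. Whether they differed from each other was not tested, and their levels cannot be compared across probes. In a list of 12 other C/EBP family members and bZIP partners, 10 were tested and 0 called (limma). Of all tested genes, 0.396% were called higher and 0.272% lower. At an unadjusted p under 0.05 (limma), 2 were higher and 1 lower, against 7.31% and 10.5% of all tested genes. Nfil3, a repressor of the same zipper class, read 3.24 and 3.07 on the PGE2 arrays, against 1.31 and 0.59 on the control arrays (2.21 ± 0.30, adjusted p = 0.0812, limma). Its second probe gave 2.18. Dbp, an activator of the PAR zipper group, stood at 1.09 (adjusted p = 0.159), Cebpg, which encodes a C/EBP protein without an activation domain, at 0.45 (adjusted p = 0.369), and Trib1, whose protein is known to promote breakdown of C/EBP alpha, at 0.36 (adjusted p = 0.324). Ddit3, which encodes the stress factor CHOP, stood at -0.22 (adjusted p = 0.607), and Atf3, a stress-induced factor, at -2.33 (adjusted p = 0.247), where it was well above background on 1 of 2 PGE2 arrays. The median of these 10 genes was 0.30.

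Among other positive acute-phase genes, which rise in inflammation, 45 of 46 listed genes were on the array and 20 were tested. Of these, 2 were called higher, C3 and Steap4, and 0 were called lower, against 0.396% and 0.272% of all tested genes. At an unadjusted p under 0.05 (limma), 5 were higher and 1 lower, against 7.31% and 10.5% of all tested genes. The median was 0.48. Of the 20, 6 passed the filter only through the PGE2 arrays, so no count or direction of this list is read. C3, the central complement component, read 7.18 and 7.26 on the PGE2 arrays, against 5.38 and 5.50 on the control arrays (adjusted p = 0.0465, limma), and its second probe gave a like difference of 1.82. Steap4, a metalloreductase of iron and copper that is known to respond to inflammatory signals, read -1.47 and -1.76 on the PGE2 arrays, against -4.94 and -4.65 on the control arrays, where it was dim. It was at least 4.64-fold higher (adjusted p = 0.0438, limma). Lbp, whose protein binds bacterial lipopolysaccharide, read -0.30 and -0.12 with PGE2, against -2.86 and -4.14 in control (3.29 ± 0.47, adjusted p = 0.0885), and was well above background on 1 of 2 control arrays. Many liver-made members of the list were not tested. The genes of C-reactive protein, serum amyloid P and hepcidin (Crp, Apcs and Hamp) were among those whose probes were well above background on none of the 4 arrays. With control replicate 1 or control replicate 2 left out, on the authors' scaled values, with no filter on dim probes or with a floor on dim signals, no gene of any list was called.

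Negative acute-phase genes, whose plasma products fall in inflammation, had 5 tested members of 11. Ahsg, the gene of fetuin A, rose from dim control signals and was the 1 called gene. Called genes made up 0.396% (higher) and 0.272% (lower) of all tested genes. With an unadjusted p under 0.05 (limma), 2 of the 5 were higher and 0 lower, against 7.31% and 10.5% of all tested genes. Ahsg read -2.20 and -2.46 on the PGE2 arrays, against -6.09 and -5.63 on the control arrays, where it was dim. The gene was thus at least 2.82-fold higher (adjusted p = 0.0438, limma). Rbp4, the retinol carrier gene, stood at 2.52 (adjusted p = 0.280) and the corticosteroid-binding globulin gene Serpina6 at 3.12 (adjusted p = 0.391). The transferrin gene Trf stood at 1.14 (adjusted p = 0.698) and the growth factor gene Igf1 at 0.37 (adjusted p = 0.841). The last 3 had overlapping groups. Both Alb probes were dim on all 4 arrays. The other 6 listed genes were dropped as dim, and Ahsg and Serpina6 passed the filter only through the PGE2 arrays, so no count or direction of the list is read. The median of the 5 was 2.52, or 1.495 with Ahsg at its bound.

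**Figure D3:**
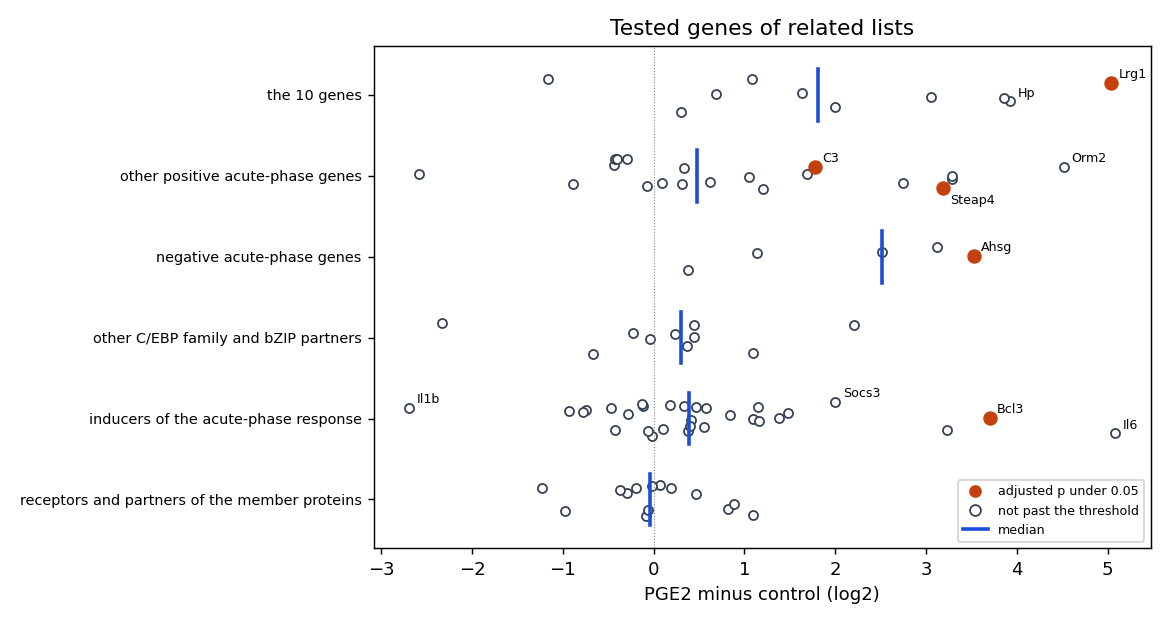
PGE2 minus control on the log2 scale (x axis) for the tested genes of the 10 described here and of 5 related lists (y axis), 1 point per gene with random vertical scatter, filled for an adjusted p under 0.05, and a bar at the list's median. The called genes are Lrg1, C3, Steap4, Ahsg and Bcl3, and the medians of the lists run from -0.04 for receptors and partners to 2.52 for negative acute-phase genes, with genes dim in 1 group drawn at their measured difference.

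Inducers of the acute-phase response, meaning cytokines, receptors and their signalling factors, had 30 tested genes with a median of 0.39. Of these, 1 was called higher and 0 lower (limma), against 0.396% and 0.272% of all tested genes. At an unadjusted p under 0.05 (limma), 10 were higher and 4 lower, against 7.31% and 10.5% of all tested genes. Of the 30, 3 passed the filter only through the PGE2 arrays, so no count or direction of this list is read. Bcl3, an NF-kB cofactor, read 4.03 and 3.69 on the PGE2 arrays, against 0.14 and 0.18 on the control arrays (3.70 ± 0.19, adjusted p = 0.0438, limma), and its second probe was dim on all 4. Il6 read 1.17 and 0.47 with PGE2, against -4.90 and -3.63 in control on its brighter probe, at least 24.97-fold higher with an adjusted p of 0.0576. Socs3, the feedback inhibitor of interleukin 6 signalling, stood at 2.27 and 2.88 with PGE2, against 0.78 and 0.36 in control (adjusted p = 0.0898). These groups did not overlap in any of the 3 genes.

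Stat3, the factor through which interleukin 6 acts, stood at 1.09 ± 0.15 on its brightest probe (adjusted p = 0.0847, limma), at 0.19 on a second and at 0.67 on another that was dim in control. Clcf1, a cytokine gene of the interleukin 6 family, stood at 1.38 ± 0.16 (adjusted p = 0.0645), and Nfkbiz, an NF-kB cofactor gene, at 1.48 ± 0.24 (adjusted p = 0.102). The shared receptor subunit Il6st stood at -0.12 ± 0.20 (adjusted p = 0.784). Il1b was not well above background on either PGE2 array and was at least 2.57-fold lower on 1 of its 3 probes (adjusted p = 0.243), with the others well above background on none. Ptger4, the mouse EP4 gene, stood at 0.59 ± 0.70 (adjusted p = 0.696), with overlapping groups and only 1 control array well above background. Its other probes, at 0.88 and -0.55, did not pass the filter. Whether any Ptger4 probe reads the EP4 transgene was not tested, and the species of the transgene is not given. Il6 and Il1b thus lay on opposite sides of 0, and neither passed the threshold.

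For receptors and partners of the proteins, 14 of 19 genes were tested and 0 were called (median -0.04). Of all tested genes, 0.396% were called higher and 0.272% lower. At an unadjusted p under 0.05 (limma), 3 were higher and 2 lower, against 7.31% and 10.5% of all tested genes. Tlr4, a receptor described for serum amyloid A, stood at 0.88 ± 0.17 (adjusted p = 0.126, limma) on its brightest probe. Another Tlr4 probe gave -0.23, and the last, dim in control, gave 1.18. Tlr2, also described as a receptor for serum amyloid A, stood at -0.97 ± 0.23 (adjusted p = 0.170, limma). Tgfbr1, a TGF-beta receptor gene, stood at 1.09 ± 0.28 (adjusted p = 0.188). Lrp2, an endocytic receptor gene for lipocalin 2 among others, stood at 0.82 ± 0.25 (adjusted p = 0.227), and the iron exporter gene Slc40a1, whose export ceruloplasmin aids, at -1.23 ± 0.43 (adjusted p = 0.269). Mmp9, whose protein lipocalin 2 binds, and the haptoglobin receptor gene Cd163 were well above background on none of the 4 arrays.

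For each of the 7 genes well above background on all 4 arrays on the tested probe, the 3 genes with the most similar pattern were found by the Euclidean distance between mean-centred log2 values of the 4 arrays. For Lrg1 these were Tnfrsf9, Wdr92 and Olr1 (distances 0.82, 1.01 and 1.05). For Hp they were Mcf2l, Sgk1 and Ucma (0.56, 0.65 and 0.67), and for Lcn2 Tspy-ps, Wnt4 and Fshb (0.33, 0.35 and 0.50). For Cebpd they were Slc4a8, Dgat2 and Vash2 (0.16, 0.21 and 0.21), for Cebpb Trp53inp2, Pkm and Hspa4l (0.11, 0.14 and 0.16), for Cebpa Slc4a7, Per2 and Mageh1 (0.06, 0.07 and 0.07), and for Serpina3n Cntf, Rcl1 and Ptbp3 (0.04, 0.04 and 0.06). With 4 arrays many genes share a pattern by its shape alone, so the names are a description. The similar genes had only to pass the filter, and some were at the level of genes without signal in control. Tspy-ps read -6.09 and -5.67 on the control arrays and Fshb -6.14 and -5.73, so their distances rest partly on background.

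**Figure D4:**
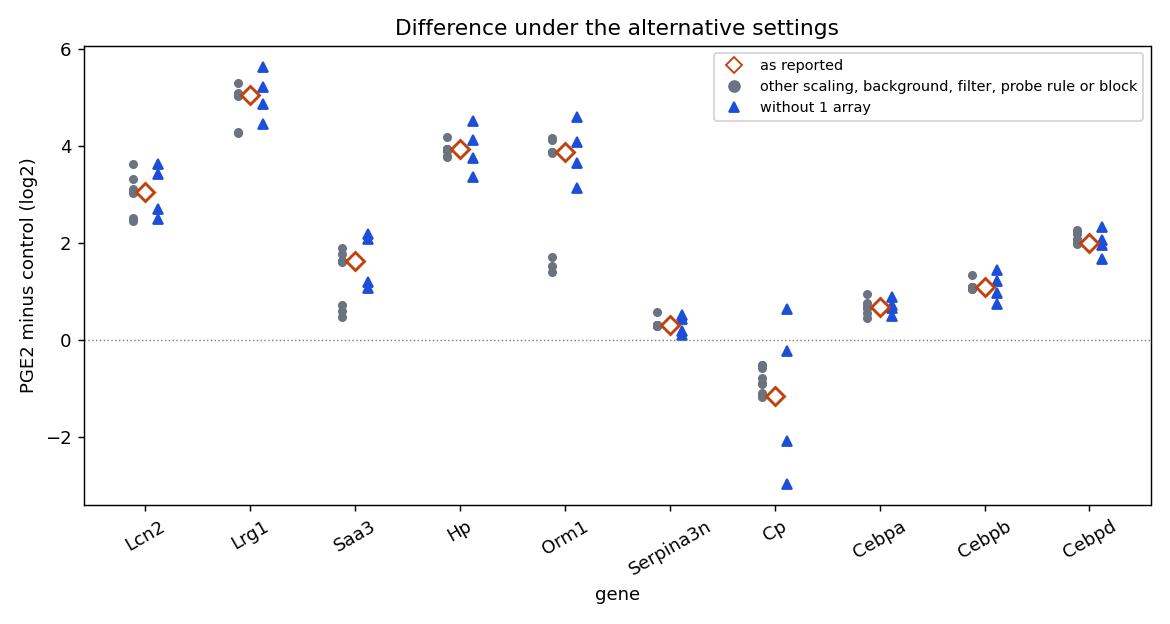
PGE2 minus control on the log2 scale (y axis) for each gene (x axis), as reported (diamonds), under the other settings for scaling, background, filter, probe rule or block (circles) and without 1 array (triangles). Cp crosses 0, with 0.64 without PGE2 replicate 1, the other 9 genes stay above 0 in all settings shown, and the Orm1 and Saa3 values are lowest where dim signals are raised, by a floor or by normexp.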

How the data were processed

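The 10 genes and the related lists were chosen with earlier results of these data known. Groups came from the sample titles. Nothing in the labels says that equal replicate numbers mark cultures handled together. The submitters' design text calls the samples biological replicates, and no label says whether they came from separate animals, so p-values measure the spread between these samples only, which may be technical.

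The scanner files hold the intensity of each spot and flags, made with Agilent Feature Extraction 11.5.1.1, protocol GE1_1105_Oct12, for design 074809, per the file headers. Version 12.0.3.1 is named in the submitters' processing notes. The authors' deposited table of the series gives that intensity multiplied by a constant for each array (PGE2 1.07 and 0.990, control 0.964 and 0.945). Its direction and centring follow the scanner values, and its column medians are 39.9 and 40.5 for PGE2, 32.7 and 42.9 for control. Symbols and cytobands came from it, with symbols updated through RefSeq gene IDs (44970 of 47700 named spots matched). Its 4 columns of detection calls were not used. The headers hold 1 scan identifier for all arrays, so no scan batch could be tested.

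Processed intensities were scaled to the 75th percentile of the array and taken to log2. Spots of a probe were averaged, leaving out spots with outlier flags, which removed 158 probes. A probe was kept if well above background on both arrays of 1 group, and the brightest kept probe stood for a gene. Limma (3.58.1, R 4.3.3) gave differences with 2 residual and 2.15 prior degrees of freedom. Probes well above background on no array (24359) had a median difference of -0.52. All 10 genes were named, with, for each list, called genes and the smallest p up to 5 genes, and Stat3, Socs3, Il6, Il6st, Nfkbiz, Il1b, Ddit3, Alb, Mmp9 and Ptger4. Marker genes, the relatives of Saa3 and Serpina3n, Crp, Apcs, Hamp and Cd163 were named after their values were seen. The fit was tested on simulated data. The number of arrays limits the precision. The normexp alternative was planned on mean spot signals and run on median spot signals (offset 50), a choice made after seeing the files.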

Additional observations from a re-analysis of the deposited data

How the results depend on the processing

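Of 138 values of the 10 genes under 14 alternatives, 125 kept their direction and side of the threshold, 8 (all Lrg1) lost the call, 4 gained one and 1 turned. The count of called genes among the 10, 1 as reported, was 0 with quantile normalization, median centring, the authors' scaled values, no filter on dim probes or a floor on dim signals, with 7 or 8 of the 10 at an unadjusted p under 0.05, and 2 with normexp and the 75th percentile. Leaving out 1 array gave 0 to 2, with 6 to 8 of the 10 at an unadjusted p under 0.05. Over all genes, 70 higher and 48 lower calls became 25 and 21 with median centring, 39 and 15 with the filter for all 4 arrays, and 0 and 0 (limma) on the authors' scaled values, with no filter or with the floor, where 4204, 2685 and 3114 genes had an unadjusted p under 0.05. Without 1 array they ranged from 0 to 98 higher and 0 to 75 lower, with 0 in both directions without control replicate 1 or control replicate 2 (2713 and 2967 at an unadjusted p under 0.05). The median of all tested genes moved to 0.23 on the authors' scale and to -0.33 with no filter, where 37436 were tested. Among all 17660 tested genes, 3225 had an unadjusted p under 0.05 with quantile normalization and 3277 with median centring (limma). With normexp and the 75th percentile the number was 3422. Cp was the value that turned, and ran from -2.97 to 0.64 without 1 array. With the floor on dim signals Orm1 was 1.71 and Saa3 0.72. The replicate block gave 88 higher and 84 lower calls and 3 among the 10, with Lcn2, Lrg1 and Hp at an adjusted p of 0.0474 each. Same-numbered arrays deviated together at r = 0.42 across genes, but with 2 pairs this does not show pairing. The causes were not tested. Without 1 array, the lone array of a group is assumed to vary like the other group. The filter for all 4 arrays leaves Orm1 and Saa3 untested, and signal over background limits both. The planned normexp on mean spot signals was not run.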
